A study of Mus musculus with 29 samples.

Results

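The extracellular matrix and matrix protease genes described here are the matrix metalloproteinases (Mmp), their tissue inhibitors (Timp), the ADAM and ADAMTS proteases, the collagens and the laminin chains. They were taken by symbol from the annotation of the array's probe sets. A gene belonged if its symbol was Mmp, Timp, Col, Adam, Adamts, Lama, Lamb or Lamc followed by a digit. Probe sets that the annotation assigns to several genes were left out. This gave 117 genes of the 18194 with a value, namely 42 collagens, 28 ADAMs, 18 MMPs, 15 ADAMTS genes, 10 laminin chains and 4 TIMPs. Each was described in 29 retinal ganglion cells (RGCs), the output neurons of the retina.

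Every RGC came from an adult C57BL/6 mouse and was classified by its spiking responses to light in a whole-mounted, undissociated retina. Its soma was then drawn into a glass pipette, its RNA was reverse transcribed from the poly(A) tail, and the amplified cDNA of that single cell was hybridized to an Affymetrix mouse genome array. The direction selective (DS) cells were 4 ON-OFF DS and 4 ON DS cells. The alpha cells were 4 OFF sustained (OFF S), 3 OFF transient (OFF T) and 2 ON alpha cells. There were 2 orientation selective (OS) cells, namely 1 ON vOS and 1 ON hOS cell, which prefer vertical and horizontal orientation. The other 10 were 2 suppressed by contrast (SbC) cells and 1 cell each of local edge detector (LED), PixON, J-RGC, ON S non-alpha, OFF high speed selective, EyeWire 4i, EyeWire 6sn and EyeWire 6sw. Cells are named by their subtype and a number from 1 to 29. Each subtype is thus known from 1 to 4 cells, the animal of each cell is not named in the sources used here, and groups of cells are therefore described without tests.

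The extracellular matrix of the retina includes the inner limiting membrane, a basement membrane of laminin and type IV collagen onto which the ganglion cell layer borders, and a looser net of proteoglycans around neurons. Laminins assemble as trimers of an alpha, a beta and a gamma chain, and collagens as triple helices of alpha chains. MMPs cut matrix and cell surface proteins and are held in check by TIMPs. ADAM proteases shed the outer parts of membrane proteins, but several neuronal ADAMs have lost their active site and serve as receptors, while ADAMTS enzymes are secreted and cut proteoglycans and procollagens.

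The promoters of members found in many cells and of members never found looked unlike each other, and 3 are shown to make this visible. Sequences are those of RefSeq (GRCm38.p6), from 250 bases before to 50 bases after an annotated start, and 75 of the 117 members had an entry. For Mmp24 and Mmp20 this was the listed start of the gene. For Adam22 it was not, since this gene on the minus strand is listed to begin at 8368312. Less of the Adam22 window thus lies before the listed start, and its CG count is not for the same stretch as the other 2. Capitals mark CG dinucleotides. Mmp24 (chr2:155775092-155775391, plus strand) and Adam22 (chr5:8368111-8368410, minus strand) were the members with an entry that were detected in most cells. Mmp20 (chr9:7627981-7628280, plus strand) was the MMP with an entry whose highest signal was lowest.
Mmp24: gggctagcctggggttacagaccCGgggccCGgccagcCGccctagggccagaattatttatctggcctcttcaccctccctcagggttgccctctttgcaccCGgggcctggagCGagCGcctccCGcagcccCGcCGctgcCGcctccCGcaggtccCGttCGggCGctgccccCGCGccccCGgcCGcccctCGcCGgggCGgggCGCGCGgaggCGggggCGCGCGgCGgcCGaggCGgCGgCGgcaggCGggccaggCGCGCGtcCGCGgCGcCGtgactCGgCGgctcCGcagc
Adam22: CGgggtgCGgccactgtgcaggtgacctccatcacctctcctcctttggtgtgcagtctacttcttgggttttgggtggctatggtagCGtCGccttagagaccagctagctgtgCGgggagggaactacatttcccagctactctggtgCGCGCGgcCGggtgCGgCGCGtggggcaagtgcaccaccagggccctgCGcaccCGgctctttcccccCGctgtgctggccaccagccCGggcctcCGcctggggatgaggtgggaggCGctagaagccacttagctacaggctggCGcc
Mmp20: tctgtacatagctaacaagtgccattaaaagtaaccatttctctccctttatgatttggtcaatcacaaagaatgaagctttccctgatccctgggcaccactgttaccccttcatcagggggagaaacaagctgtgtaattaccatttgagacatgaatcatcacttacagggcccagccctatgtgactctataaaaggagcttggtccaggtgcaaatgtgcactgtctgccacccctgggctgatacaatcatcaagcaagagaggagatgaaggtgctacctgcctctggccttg
The Mmp24 window held 44 CG dinucleotides, the Adam22 window 19 and the Mmp20 window 0. Mmp20 encodes enamelysin, an enzyme of developing teeth, and its highest signal in any of the 29 cells was 99.1. Among the 10 members with an entry that were detected in at least 5 cells, the median was 25 CG dinucleotides, while it was 19.5 among 18 members detected in 1 to 4 cells and 5 among 47 members never detected. Over all genes with an entry the median was 17, over those in at least 5 cells 22, and over those never detected 8, so the same order was seen outside the matrix genes. The letters TATAAA, searched on both strands, occurred in 0 of the 10 windows of members in at least 5 cells and in 15 of the 47 windows of members never detected (31.9%), against 11.5% of the windows of all genes, 8.13% for all genes in at least 5 cells and 15.3% for all genes never detected. These letters are a description of the sequence and not a sign of a bound factor.

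Signals are linear intensities, and the trimmed mean of every array was 1500. A gene was called detected in a cell at a signal of at least 3000, which is 2 times that mean. For log2 values, signals under 375 were set to 375 (8.55 on the log2 scale). Between 1182 and 4201 genes were detected per cell, with a median of 2908, and this number stands for the depth of each library. The RGC markers Sncg and Uchl1 were detected in all 29 cells, Nefl in 28, and Tubb3, Stmn2 and Thy1 in 27, while Nefh and Gap43 were in 18, Rbpms in 15, and Pou4f1 and Isl1 in 11. Each cell held between 5 and 13 of 14 such markers, the fewest in EyeWire 6sw 21 and SbC 26. Pou4f3 was detected in 0 cells. RNA of rod photoreceptors was also present, since 18 cells held at least 5 of 10 rod genes, among them 3 of 8 DS and 6 of 9 alpha cells. Glial markers were found as well. At least 1 of 12 Müller glia markers was detected in 28 cells, with a median of 3 per cell, Clu in 27 and Dkk3 in 21 cells. At least 1 of 4 astrocyte markers was detected in all 29 cells, Aldoc in 29 and Gfap in 3. Markers of endothelial cells, mural cells and fibroblasts were scarce. Of 12 endothelial markers 4 were detected, Egfl7 in 5 cells and Kdr, Flt1 and Esam in 1 each, while Cldn5, Pecam1 and Cdh5 were at 0 cells. Of 10 mural markers 2 were detected (Rgs5 in 1 cell, Kcnj8 in 2), with Pdgfrb and Acta2 at 0 cells, and of 7 fibroblast markers only Igf2 was detected, in 1 cell, with Dcn and Lum at 0 cells.

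Matrix and protease genes were sparse in RGCs, and the few that recurred were a membrane-anchored protease (Mmp24), ADAM receptors (Adam22 and Adam11) and an MMP inhibitor (Timp2). Of the 117 members, 38 (32.5%) were detected in at least 1 cell, whereas 55% of all genes were. These 4 were detected in at least 12 cells, which is 3.42% of the members, beside 14.7% of all genes. Another 19 members were detected in a single cell, and 79 in none. The undetected members did not lie just under the threshold, because the highest signal of any of them was 1989, for Adamts16 in J-RGC 11, and the next 1273, for Col11a1 in ON hOS 10. Detection of a gene depends on its probe set and on how much of its RNA was captured, so an undetected gene may still be expressed at a level that these arrays cannot show.

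The families differed in how often their genes were found. A TIMP gene was detected on average in 11.2% of cells, an ADAM gene in 8.62%, an MMP gene in 7.09%, a laminin chain in 5.86%, an ADAMTS gene in 2.53% and a collagen gene in 1.72%, while a gene of the whole array was detected in 15.4%. The collagens were the largest family with 42 genes, yet 32 of them were detected in 0 cells, including the fibrillar chains Col1a1, Col1a2 and Col3a1, whose highest signals were 325, 269 and 143.

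**Figure D1:**
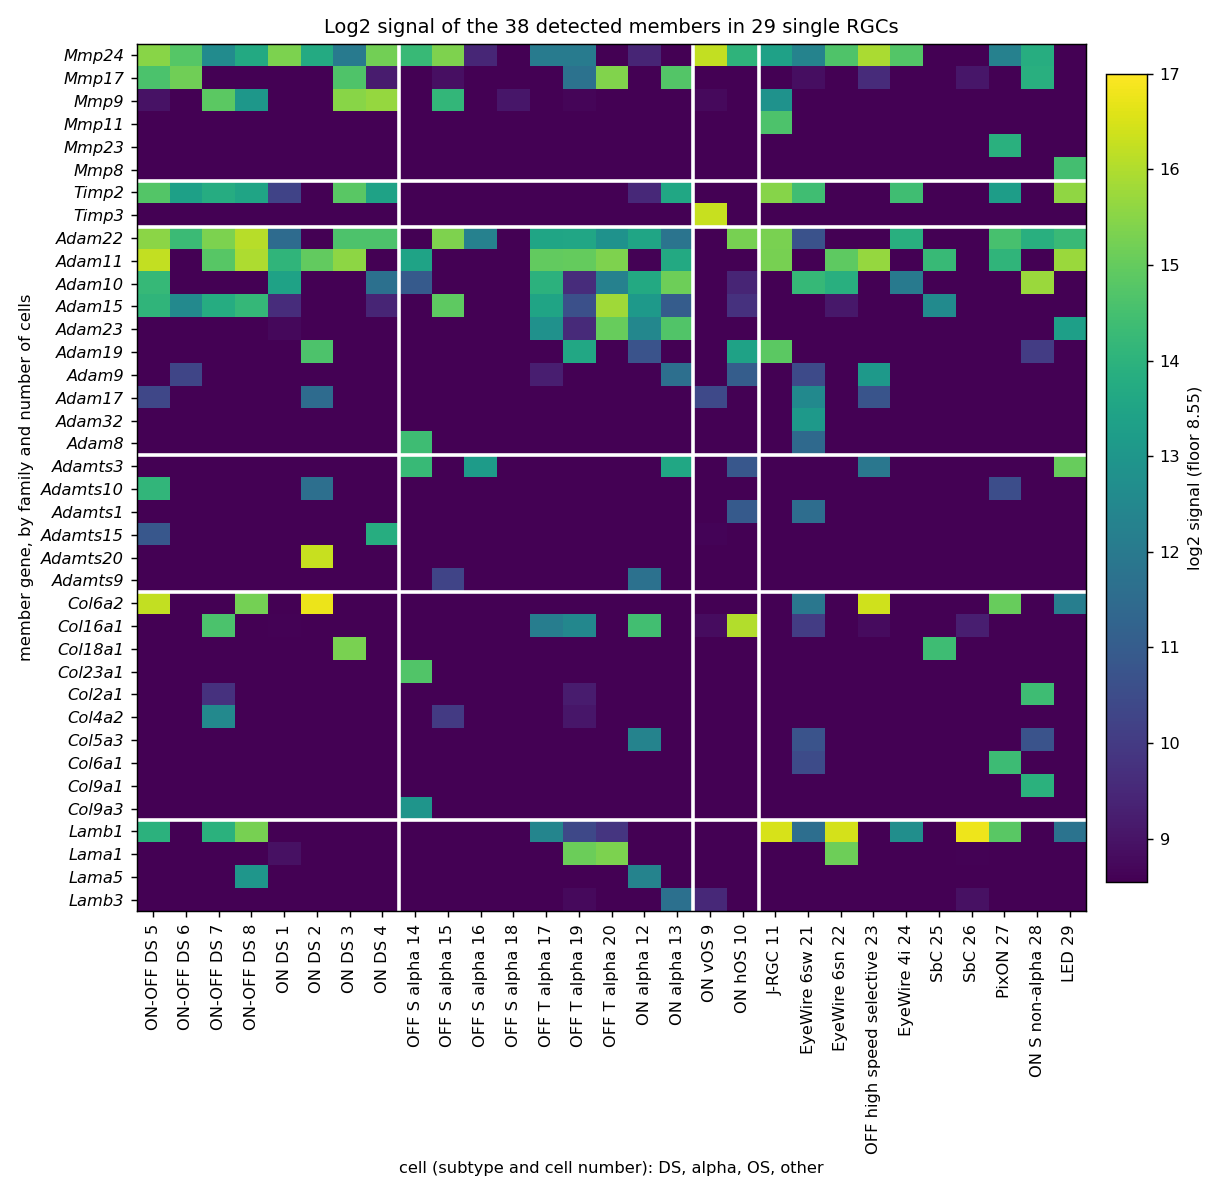
Log2 signal (colour, with a floor of 8.55) of the 38 members detected in at least 1 cell, with 1 row per gene grouped by family and 1 column per cell. White lines part the families, and the DS, alpha, OS and other cells. Mmp24, Adam22, Adam11 and Timp2 fill most columns of their rows or large parts of them, while most collagen and ADAMTS rows show 1 or 2 bright cells.

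Each cell had between 0 members, in OFF S alpha 18, and 10 members, in ON-OFF DS 5, with a median of 6 (5.13% of the members). Over all genes the median was 2908 of 18194, a larger share, and the same held in every single cell. The median was 9 members in ON-OFF DS, 6 in ON DS, 3 in OFF S alpha, 7 in OFF T alpha and 8.5 in ON alpha cells. The range was 5 to 10 in ON-OFF DS and 3 to 7 in ON DS cells, which overlap, and 0 to 6 in OFF S alpha and 7 to 8 in OFF T alpha cells, which do not. Over all genes, 1672 to 3151 were found in OFF S alpha and 2596 to 4073 in OFF T alpha cells. At least 5 rod genes were held by all 4 OFF S alpha and by 1 of 3 OFF T alpha cells. Subtype, depth and rod RNA cannot be told apart in these member counts. The number of members followed the number of genes found in the cell (over 29 cells, Pearson's r = 0.68, Spearman's rho = 0.64, and r = 0.62 once the 2 cells with the most extreme numbers of genes were left out). This is a description over cells whose animals are not named. OFF S alpha 16 and 18, with 2 and 0 members, also had few genes, 1672 and 2012, and SbC 26, with 1 member, had the fewest of all cells.

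**Figure D2:**
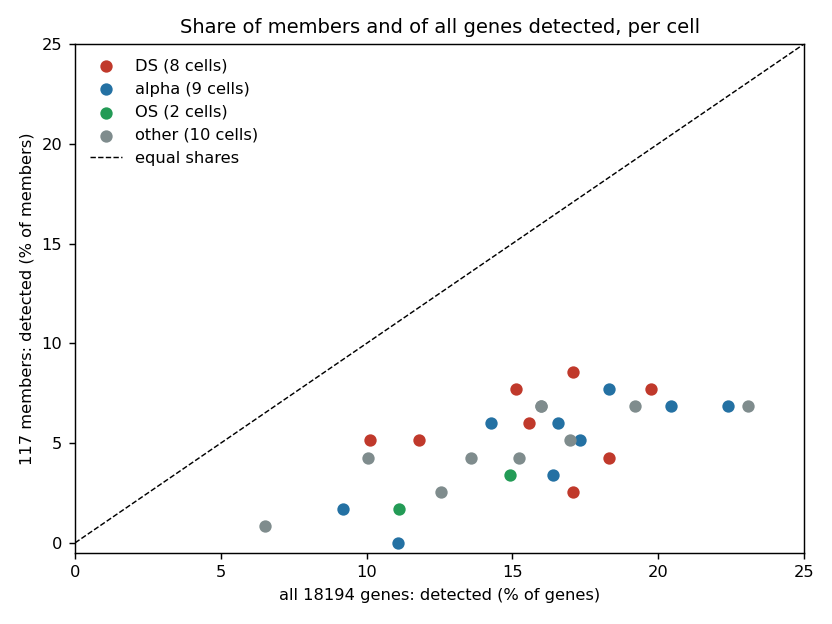
Share of the 117 members detected in a cell (vertical axis, percent) against the share of all 18194 genes detected in that cell (horizontal axis, percent), with 1 point per cell coloured by class. Every point lies under the dashed line of equal shares, and cells with more genes tended to have more members.

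Mmp24 was the member found in most cells. It encodes MT5-MMP, a membrane-anchored metalloproteinase known from the nervous system, where it cleaves N-cadherin. It was detected in 21 of 29 cells, or 72.4% (exact 95% Clopper-Pearson interval 52.8 to 87.3%, which covers counting error only). Its signal was 46096, 27893, 6392 and 13207 in ON-OFF DS 5 to 8, and 41709, 13535, 4067 and 37968 in ON DS 1 to 4. Thus every DS cell held it, although the level varied widely among them. Both OS cells were also high, with 76928 in ON vOS 9, the highest of all, and 16991 in ON hOS 10. Of the 10 other cells 7 had it, and SbC 25, SbC 26 and LED 29 did not, at 15, 107 and 75. Among the alpha cells it was split, and the ON alpha cells did not reach the threshold. OFF S alpha 14, 15, 16 and 18 had 19609, 41811, 706 and 211, OFF T alpha 17, 19 and 20 had 4321, 4244 and 200, and ON alpha 12 and 13 had 683 and 29.

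The other detected MMPs were rarer. Mmp17, which encodes MT4-MMP, tied to the membrane by a lipid anchor, was detected in 7 cells, and its signal was 24866 and 36478 in ON-OFF DS 5 and 6, 25977 in ON DS 3, 43436 and 3422 in OFF T alpha 20 and 19, 27461 in ON alpha 13 and 15221 in ON S non-alpha 28. Mmp9, or gelatinase B, a secreted enzyme that cuts denatured collagen and type IV collagen, was detected in 6 cells, 4 of them DS cells. All 6 cells with Mmp9 also had Mmp24. Mmp8 (the neutrophil collagenase), Mmp11 (stromelysin-3) and Mmp23 were each detected in a single cell, at 22737 in LED 29, 25253 in J-RGC 11 and 15405 in PixON 27. In all other cells these 3 genes had at most 328, so their detections stand far from the rest. The remaining 12 MMP genes were found in 0 cells, among them Mmp2 (gelatinase A) and Mmp14 (MT1-MMP), whose highest signals were 238 and 738.

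Timp2, an inhibitor of most MMPs, was detected in 12 cells (41.4%, interval 23.5 to 61.1%). Its signal was 27041, 10456, 14160 and 11354 in ON-OFF DS 5 to 8, and 1219, 203, 29438 and 10899 in ON DS 1 to 4. All ON-OFF DS cells and 2 of the ON DS cells therefore held it. In alpha cells it was detected only in ON alpha 13, at 12268, while the 7 OFF alpha cells lay between 1 and 288. It was further detected in J-RGC 11, EyeWire 6sw 21, EyeWire 4i 24, PixON 27 and LED 29, between 9739 and 49503, and in neither OS cell. Timp3, an inhibitor that binds to the matrix and also blocks several ADAMs, was detected in ON vOS 9 alone, at 80499, with at most 235 in any other cell. Timp1 and Timp4 were detected in 0 cells. An MMP was detected in 24 cells and a TIMP in 13, and all 13 cells with a TIMP also held an MMP. In 11 cells an MMP was found without a TIMP, and in 5 cells neither was found.

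The 2 most frequent ADAMs, Adam22 and Adam11, act as receptors. Adam22, Adam11 and Adam23 encode ADAMs without protease activity that bind secreted LGI proteins at the neuronal surface, and ADAM22 is part of the complex of Kv1 potassium channels on axons. Adam22 was detected in 19 cells (65.5%, interval 45.7 to 82.1%), Adam11 in 17 and Adam23 in 5, and at least 1 of these 3 in 25 cells. Adam22 had 47035, 20337, 41439 and 70296 in ON-OFF DS 5 to 8, and 2918, 5, 25354 and 25624 in ON DS 1 to 4. In OFF S alpha 14, 15, 16 and 18 it had 18, 42538, 4885 and 33, in OFF T alpha 17, 19 and 20 it had 11712, 11982 and 7369, and in ON alpha 12 and 13 it had 11759 and 3604. Adam22 was thus in every ON-OFF DS, OFF T alpha and ON alpha cell, and in a part of the ON DS and OFF S alpha cells. All 5 cells with Adam23 also held Adam22, and 4 of the 5 were alpha cells, the fifth being LED 29. At 2 other probe sets Adam23 was detected in ON-OFF DS 7 alone, at 6505 and 16339, a cell with 241 at the main probe set.

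The ligands and partners of these receptors were found to very different extents. Of the 7 genes on this list 5 were detected, and Lgi4 and Dlg4, which encodes a scaffold of synapses, were in 0 cells. Lgi3, a secreted ligand, was found in 26 cells, Lgi2, another ligand, in 19, Kcna1, a Kv1 channel subunit, in 16, Kcna2, another subunit, in 11 and Lgi1 in 8. Of the 19 cells with Adam22, 18 held Lgi3, 15 held Lgi2, 13 held Kcna1, 9 held Kcna2 and 6 held Lgi1. All 17 cells with Adam11 held Lgi3. Lgi3 was undetected in only 3 of the 29 cells, however, so most genes would share their cells with it.

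Among the ADAMs with protease activity, Adam10 was detected in 11 cells. It encodes the enzyme that sheds amyloid precursor protein, N-cadherin, the prion protein and Notch. Its highest signal was 54801, in ON S non-alpha 28, followed by 36043 in ON alpha 13. Both ON alpha cells held it, as did 1 ON-OFF DS and 2 ON DS cells, 2 OFF T alpha cells and no OFF S alpha cell. Of 14 genes listed as regulators or substrates of ADAM10 or ADAM17, 8 were detected. Those in most cells were Prnp, the prion protein, in 27, App, the amyloid precursor protein, in 22 and Tspan17, a tetraspanin that guides ADAM10 to the membrane, in 18. Of the remaining ADAM genes, with or without protease activity, Adam15 was detected in 9 cells, Adam19 in 4, Adam9 in 2, and Adam8, Adam17 and Adam32 in 1 each.

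Lamb1, the laminin beta 1 chain, was the laminin chain found in most cells, 11 of 29 (37.9%, interval 20.7 to 57.7%). Its highest signals were 113642 in SbC 26, 92978 in J-RGC 11 and 90808 in EyeWire 6sn 22, and it was detected in 7 of the 10 other cells, against 3 of 8 DS, 1 of 9 alpha and 0 of 2 OS cells. It was the only member found in SbC 26. Lama1, the laminin alpha 1 chain of the inner limiting membrane, was detected in OFF T alpha 19 and 20 and EyeWire 6sn 22, at 34974, 41573 and 36214, and no other cell exceeded 489. Lama5 was detected in 2 cells, ON-OFF DS 8 and ON alpha 12, and Lamb3 in ON alpha 13 alone, at 3262, just above the threshold. No gamma chain was detected, the highest Lamc1 signal being 353, so no cell held RNA for all chains of a laminin trimer. An alpha and a beta chain met in 2 cells. Of the type IV collagen chains only Col4a2 was detected, in ON-OFF DS 7 at 5869, while its usual partner Col4a1 was at most 228.

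Among the other collagens, Col6a2 was detected in 7 cells and Col16a1 in 5. Col6a2 encodes a chain of type VI collagen, which forms beaded filaments near basement membranes, and its signals ran from 3801 in EyeWire 6sw 21 to 109165 in ON DS 2. Chains of this collagen assemble together, yet Col6a1 was detected only in PixON 27, which also held Col6a2, and Col6a3 in 0 cells. Col16a1, a collagen that associates with fibrils, was highest in ON hOS 10 at 67131, the only collagen found in an OS cell. Col18a1, the basement membrane collagen from which endostatin is cut, was detected in ON DS 3 and SbC 25. Among the ADAMTS genes, Adamts3, a procollagen N-propeptidase, was detected in 5 cells and highest in LED 29 at 33449. Adamts20 reached 79984 in ON DS 2, with at most 86 in any other cell.

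The 19 members found in a single cell were spread over 12 libraries, and 3 of these held 8 of them. EyeWire 6sw 21 was the only cell with Adam17, Adam32 and Adamts1, OFF S alpha 14 the only cell with Adam8, Col23a1 and Col9a3, and ON S non-alpha 28 the only cell with Col2a1 and Col9a1, which encode the collagens of cartilage and vitreous fibrils. These 3 libraries also held RNA of other cell types. EyeWire 6sw 21 held 5 of 8 microglia markers, 6 of 12 Müller glia markers and 9 of 10 rod genes. OFF S alpha 14 held 7 Müller glia markers, 3 of 8 amacrine markers and 9 rod genes, and ON S non-alpha 28 held 8 Müller glia markers, 4 amacrine markers and 9 rod genes. Over all cells the number of Müller glia markers ran between 0 and 8 with a median of 3. ON alpha 12, with 0 rod genes, was the only cell with Adamts9 and Col5a3, and PixON 27, with 8 rod genes, the only cell with Col6a1 and Mmp23. Of the 19 members, 14 were found in a cell with at least 5 rod genes, as were 1139 of the 1788 genes of the array detected in 1 cell (63.7%), and 18 of the 29 cells were of this kind. The part of RNA from other cells in these detections was not tested.

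Several members have more than 1 probe set, and these were used to ask whether a signal repeats. Lamb1 had a second probe set that was detected in 9 cells, all among the 11 of the first, with a Pearson's r of 0.95 between the log2 signals over 29 cells. For Col6a2 the second probe set was detected in 6 of the same 7 cells, with r = 0.997. For Mmp9 the second was detected in 4 cells, of which 3 were shared, with r = 0.65, and the fourth was ON-OFF DS 5 at 3523. Not all genes repeated in this way. The 2 other probe sets of Mmp24 were detected in 0 and 1 cells, the second probe set of Adam11 in 3 cells and the 5 others of Timp2 in 1 to 3 cells, always within the cells of the main probe set. The second probe set of Adam22 was detected in 1 cell, the other probe sets of Adam10 in 0 cells and those of Adam15 in 3, 0 and 0 cells. Altogether 27 of the 42 other probe sets of detected members were detected in 0 cells. None of the 79 members missed at the main probe set was detected at another. Because reverse transcription began at the poly(A) tail, probe sets far from the end of a transcript may miss it, which was not tested here.

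**Figure D3:**
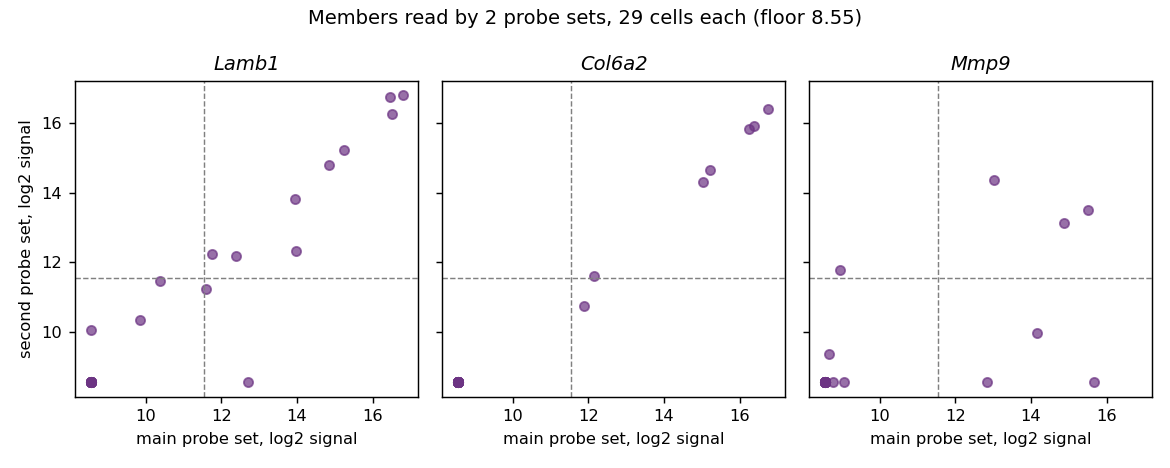
Log2 signal at the second probe set (vertical axis) against the main probe set (horizontal axis) of Lamb1, Col6a2 and Mmp9, with 1 point per cell, a floor of 8.55 and dashed lines at the detection threshold. Points of Lamb1, with the exception of EyeWire 4i 24, and of Col6a2 lie near the diagonal, while those of Mmp9 scatter.

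DS and alpha cells were compared first. A member was said to stand apart where the medians of the log2 signal differed by at least 2 and at least 50% of the cells of the higher group held the gene. Mmp24, Timp2 and Mmp9 were higher in DS cells, and no member was lower. These were 3 of 117 members (2.56%), beside 2.52% of all genes called higher and 3.53% called lower in DS cells. The median difference was 0 for the members and for all genes, because most are at the floor in both groups.

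Mmp24 was detected in 8 of 8 DS cells, with a median signal of 20714 (4067 to 46096), against 4 of 9 alpha cells, with a median of 706 (29 to 41811). The log2 medians differed by 4.78, with an SD of 1.31 among DS and 2.61 among alpha cells, and the groups overlapped through OFF S alpha 14 and 15 and OFF T alpha 17 and 19. Timp2 was detected in 6 of 8 DS cells (median 11127, 203 to 29438) and in 1 of 9 alpha cells (median 205, 1 to 12268), a difference of 4.89 on the log2 scale. Here the overlap came from ON alpha 13 and from the low ON DS 1 and 2. Mmp9 was found in 4 of 8 DS cells, at 46366 and 51789 in ON DS 3 and 4 and at 29953 and 8275 in ON-OFF DS 7 and 8, and in 1 of 9 alpha cells, OFF S alpha 15, at 18206. The difference was 2.44, and it passed the rule with exactly 50% of the DS cells, so the call was lost when any 1 of those 4 was left out.

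DS cells held 0 to 9 of the 10 rod genes, with a summed signal of 0 to 1213000, and alpha cells 0 to 9, with a summed signal of 0 to 3366640. The values were therefore also taken in the cells with under 5 rod genes, 5 DS and 3 alpha cells. There the differences were 5.35 for Mmp24, 4.86 for Timp2 and 0.41 for Mmp9. Adam22 and Adam11, the other members found in many cells, differed by 1.79 and 1.43. Adam22 was held by 6 of 8 DS and 7 of 9 alpha cells, and Adam11 by 6 of 8 DS and 5 of 9 alpha cells, so both were shared by the classes. Of 12 Müller glia markers, Vim (-3.75) and Dkk3 (-2.65) were lower in DS cells, and their part in the differences of members was not tested. Among 95 genes of related lists (integrins, basement membrane, perineuronal net, collagen synthesis, ADAM partners and MMP activation), 4 were higher in DS cells and 2 lower. These shares were 4.21% and 2.11%, beside 2.52% and 3.53% of all genes. Agrn (agrin, a heparan sulfate proteoglycan of basement membranes) was higher in DS cells by 5.93, Tnr (tenascin R, of perineuronal nets) by 2.64, Colgalt1 (a collagen galactosyltransferase) by 3.39 and Kcna2 (a Kv1 channel subunit) by 2.09. Bcan (brevican) and Tspan17 were lower in DS cells, with differences of -2.79 and -2.18.

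**Figure D4:**
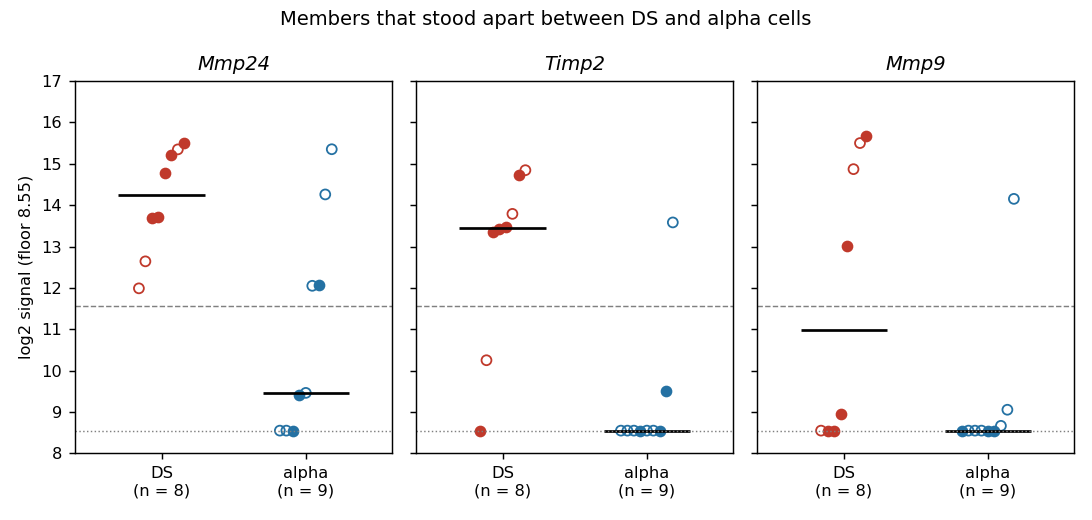
Log2 signal of Mmp24, Timp2 and Mmp9 in 8 DS and 9 alpha cells, with 1 point per cell and a bar at the median. Open points are cells with at least 5 rod genes, the dashed line is the detection threshold and the dotted line the floor of 8.55. All DS cells lie above the threshold for Mmp24, while for Timp2 and Mmp9 both groups reach the floor.

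Within the DS cells, 5 members were higher in ON-OFF DS than in ON DS cells and 0 were lower (4.27% of members called higher, beside 8.15% of all genes called higher and 3.13% called lower). The 5 members were Adam15, Lamb1, Col6a2, Mmp17 and Adam22. More genes of any kind were found in ON-OFF DS cells, with a median of 3219 genes against 2490 in ON DS cells. Adam15, a membrane protease that also binds integrins, was the only one of the 5 whose groups did not overlap. It had 17183, 5903, 14036 and 18551 in ON-OFF DS 5 to 8, against 793, 67, 71 and 695 in ON DS 1 to 4, and the log2 medians differed by 4.93. It was 5.07 in the 3 ON-OFF DS and 2 ON DS cells with under 5 rod genes. The values are those of the main probe set, and the other Adam15 probe sets were detected in 3, 0 and 0 cells. How many of all genes had groups without overlap was not counted, so nothing further is read from the lack of overlap. Lamb1 was 16150, 7, 15859 and 39113 in ON-OFF DS 5 to 8, against 9, 2, 39 and 18 in ON DS 1 to 4, a difference of 5.42 that ON-OFF DS 6 did not share. Of 10 rod genes, ON-OFF DS cells held 1 to 7 (summed signal 9222 to 556613) and ON DS cells 0 to 9 (0 to 1213000). Of 12 Müller glia markers, Glul (3.18) and Spc25 (2.67) were higher in ON-OFF DS cells, and Dkk3 (-5.33) and Rlbp1 (-2.66) were lower. The part of rod and glial RNA in the differences of members was not tested.

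For the other members the groups overlapped more. Adam22 differed by 2.36, with all ON-OFF DS cells and ON DS 3 and 4 above the threshold, and by 0.80, under the rule, without ON DS 1 or without ON DS 2. Col6a2 was detected in ON-OFF DS 5 and 8 and in ON DS 2, whose signal was the highest, and differed by 3.34. Mmp17 was detected in ON-OFF DS 5 and 6 and in ON DS 3, and differed by 2.70. Without ON-OFF DS 5 or without ON-OFF DS 6, the Mmp17 difference turned to -0.33, and that of Col6a2 became 0 without ON-OFF DS 5 or without ON-OFF DS 8. Mmp24 was alike in both, with a difference of -0.24. Of the receptor partners, Lgi1, Lgi2 and Kcna1 were also higher in ON-OFF DS cells, by 4.54, 3.24 and 5.01, as were the laminin receptor Dag1 (dystroglycan) by 2.18, Agrn by 2.15, the link protein Hapln4 of perineuronal nets by 4.57, Tspan17 by 2.04 and Serpini1 (neuroserpin, an inhibitor of tissue plasminogen activator) by 4.39. These were 8 of the 95 related genes (8.42%), near the 8.15% of all genes called higher. Of the related genes 0 were lower, beside 3.13% of all genes. Nothing is read from these counts about the partners as a set.

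The OFF and ON alpha cells gave a comparison of 7 against 2 cells, and its ON side rests on ON alpha 12 and 13. The OFF alpha cells held a median of 2981 genes, against 3525 in ON alpha cells. Of 12 Müller glia markers they held 1 to 7 (summed signal 165576 to 397649), against 4 to 5 in ON alpha cells (123893 to 148148), and of 4 astrocyte markers 1 to 3 (150657 to 558967), against 2 to 3 (184111 to 199541). Vim (-5.07), Spc25 (-2.87), Abca8a (-2.87), S100b (-5.82) and Gfap (-2.30) of these lists were lower in OFF alpha cells, and their part in the differences of members was not tested. The paper reports that S100b correlated highly with the melanopsin gene Opn4 in these RGCs. Whether S100b marks astrocyte RNA here was not tested. In OFF alpha cells 2 members were higher, Mmp24 by 3.07 and Adam11 by 2.32, and 6 were lower (5.13% of the members, beside 11.6% of all genes called lower and 2.39% called higher). The 6 were Adam10, Adam23, Col16a1, Mmp17, Timp2 and Adamts3, with differences of -4.78, -5.05, -2.94, -3.10, -3.00 and -2.52 in that order. Adam10 was detected in OFF T alpha 17 and 20 of the 7 OFF alpha cells, at 16071 and 4870, against 13212 and 36043 in ON alpha 12 and 13. Timp2 was the only member without overlap, since the 7 OFF alpha cells reached at most 288 and the ON alpha cells 731 and 12268, but ON alpha 12 lay under the detection threshold. How many of all genes lacked overlap was not counted. Of the 6, Col16a1, Mmp17, Timp2 and Adamts3 were held by only 1 of the ON alpha cells. The Col16a1 difference became 0 without ON alpha 12, and without ON alpha 13 those of Mmp17 and Adamts3 became 0 and that of Timp2 -0.96. The call of Mmp24 was lost when any 1 of OFF S alpha 14 and 15 and OFF T alpha 17 and 19, the 4 OFF alpha cells that held it, was left out, with values between 1.77 and 1.79. Of the 95 related genes, 2 were higher in OFF alpha cells, Bcan by 2.66 and Tnr by 3.73, and 11 were lower, among them Agrn (-3.20), Lgi1 (-2.23), Kcna1 (-2.32), Kcna2 (-2.48), App (-2.41) and 4 collagen-modifying enzymes (P4ha2, Plod1, Plod3 and Colgalt2). The shares of related genes were 2.11% higher and 11.6% lower, beside 2.39% and 11.6% of all genes. In cells with under 5 rod genes, OFF T alpha 17 and 20 and ON alpha 12, Adam23 and Mmp17 turned to differences of 1.45 and 3.43. In the same cells the differences of Adam10 (-0.58), Mmp24 (0.90), Timp2 (-0.96) and Adamts3 (0) no longer passed the rule, while Col16a1 (-4.10) and Adam11 (6.55) did. The Adam11 difference turned to -0.14 when any 1 of the 3 OFF T alpha cells was left out and to -0.22 without ON alpha 12.

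Within the OFF alpha cells, 102 of the 117 members had a difference of 0 between sustained and transient cells. In OFF S alpha cells 8 members were lower than in OFF T alpha cells and 1 was higher (6.84% of the members called lower, beside 8.43% of all genes called lower and 3.39% called higher). Adam11 had 11292, 201, 303 and 152 in OFF S alpha 14, 15, 16 and 18, against 31796, 32794 and 41859 in OFF T alpha 17, 19 and 20. The groups did not overlap, and the log2 medians differed by -6.45. Adam23 had 72, 18, 121 and 351 in the OFF S alpha cells, against 7217, 755 and 33742 in the OFF T alpha cells. The difference was -4.27, again without overlap. However, OFF T alpha 19, at 755, lay under the detection threshold, and Adam23 was detected in 2 of 3 OFF T alpha cells. The nearest values of the groups, 351 and 755, were thus both undetected. Genes without overlap between these groups were not counted over the whole array, so nothing further is read from it for Adam11 or Adam23. Adam22 was found in 2 of 4 OFF S alpha and 3 of 3 OFF T alpha cells, with a difference of -3.11, although OFF S alpha 15 was the highest cell. Without OFF S alpha 14 or without OFF S alpha 18 the Adam22 difference was -1.26 and the call was lost.

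Of the other members lower in OFF S alpha cells, Lama1 differed by -6.54, Adam15 by -4.92, Adam10 by -3.70, Col16a1 by -3.58 and Mmp17 by -3.19, each detected in 2 of 3 OFF T alpha cells. Adam15 was also detected in OFF S alpha 15, at 30601, and the others in 0 of 4 OFF S alpha cells. The Lama1 difference was -3.40 without OFF T alpha 19 and -3.27 without OFF T alpha 20. That of Col16a1 lost its call without OFF T alpha 17 (-1.96) or without OFF T alpha 19 (-1.79), as did that of Mmp17 without OFF T alpha 20 (-1.59). Adamts3 was higher in OFF S alpha cells by 2.32, through OFF S alpha 14 and 16 at 19265 and 9312, and by 0 when either was left out. Among the 95 related genes 7 were lower and 1 was higher (7.37% and 1.05%, beside 8.43% and 3.39% of all genes). The differences were -5.68 for Kcna2, -6.18 for Hapln4, -2.94 for Tnr, -2.94 for Bcan, -3.54 for App, -4.01 for Cdh2 (N-cadherin) and -4.88 for Pcsk7 (a proprotein convertase), while Tspan5, another tetraspanin partner of ADAM10, was higher by 4.64. The OFF S alpha cells held a median of 2497 genes, against 3014 in OFF T alpha cells. The summed signal of rod genes was 232297 to 3366640 in OFF S alpha cells and 5629 to 628085 in OFF T alpha cells. All 4 OFF S alpha cells held at least 5 rod genes, as did 1 of 3 OFF T alpha cells, so subtype and rod RNA cannot be told apart here.

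**Figure D5:**
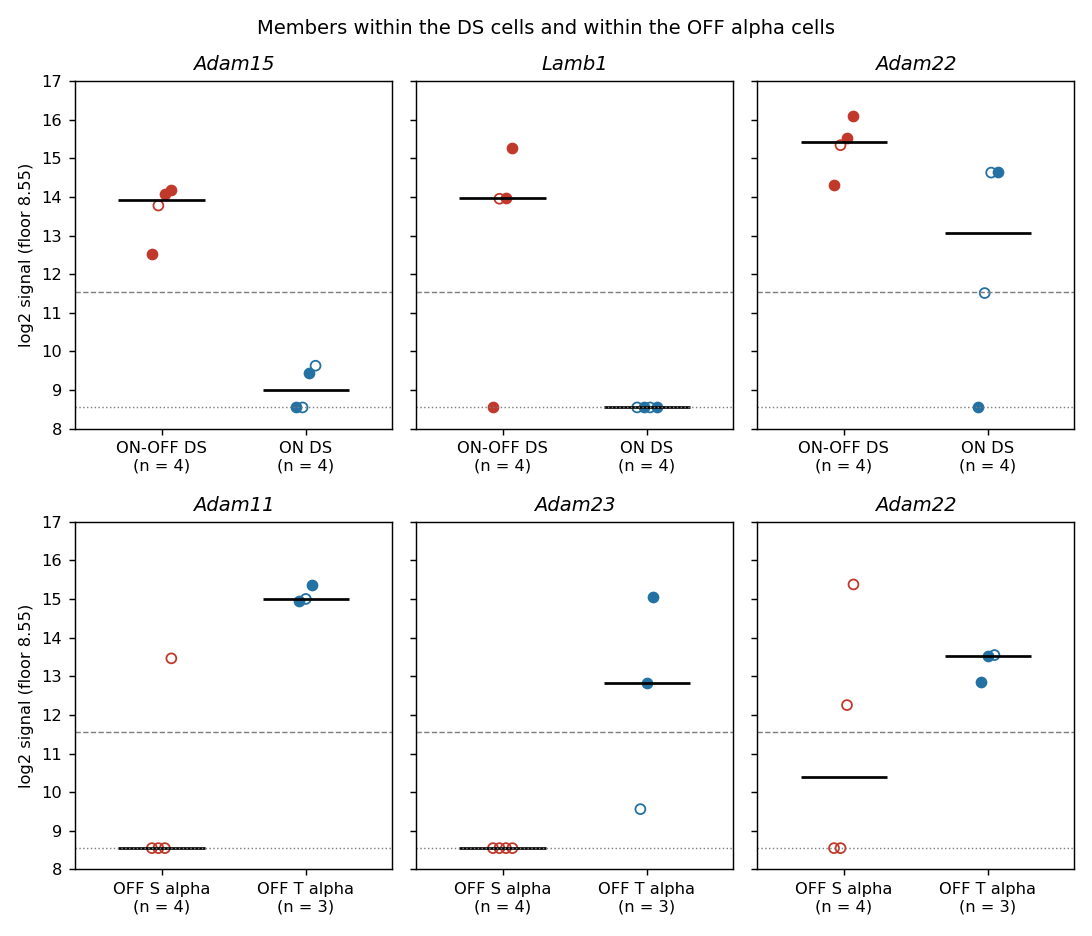
Log2 signal of Adam15, Lamb1 and Adam22 in ON-OFF DS and ON DS cells (upper row) and of Adam11, Adam23 and Adam22 in OFF S alpha and OFF T alpha cells (lower row), with 1 point per cell and a bar at the median. Open points are cells with at least 5 rod genes, the dashed line is the detection threshold and the dotted line the floor of 8.55. The groups are apart for Adam15, Adam11 and Adam23 and overlap for Lamb1 and Adam22. For Adam23, 1 OFF T alpha cell lies under the threshold.

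The 4 comparisons share cells, since the DS and alpha cells were divided again, and they are not independent of each other. No member was found in every cell of a subtype of at least 2 cells and nowhere else. Among the 6 members detected in at least 10 cells, 11 of 15 pairs had a positive correlation of log2 signals over the 29 cells. The highest was that of Adam22 and Timp2 (Pearson's r = 0.56, Spearman's rho = 0.56, and r = 0.52 once the 2 cells with the most extreme signals were left out), which were detected together in 11 cells, and the next was that of Lamb1 and Timp2 at 0.37. Cells with more detected genes held more members, and this depth is shared by all pairs. Adam22 and Adam11, both receptors for LGI proteins, had r = 0.07 and were detected together in 11 cells.

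Of 20 integrin subunits, the main matrix receptors, 5 were detected, Itga3 in 10 cells, Itgb5 in 2 and the common beta subunit Itgb1 in 0, with a highest signal of 1789. None of the integrins stood apart in any of the 4 comparisons. Of 13 other basement membrane genes and laminin receptors 6 were detected, Agrn in 14 cells, Sparc, a secreted collagen-binding protein, in 10 and Dag1 in 8. Of 13 perineuronal net genes 5 were detected, Hapln4 in 15 cells, Tnr in 13 and Bcan in 9. Of 17 genes for the synthesis and crosslinking of collagen 9 were detected, P4hb, a subunit of prolyl hydroxylase that also serves as a general disulfide isomerase, in 22 cells, Colgalt1 in 11 and Plod3, a lysyl hydroxylase, in 5. Of 11 genes of MMP activation and the plasminogen system 5 were detected, Bsg, or basigin, an inducer of MMPs, in all 29 cells, Serpini1 in 21 and Pcsk7 in 9.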

How the data were processed

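Each of the 29 samples was 1 RGC on 1 Affymetrix mouse genome array. The deposited values were intensity signals on a linear scale, which the authors computed by MAS5 (version not given in the sources used here). Detection calls of MAS5 were not used. Hybridization was carried out at 2 facilities, and the sources used here do not say which cell went where, so a batch effect of the facility was not tested. Groups were taken from the labelled light responses.

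Of 45101 probe sets, 34958 had 1 gene, 932 several and 9211 none in the annotation table, and only the first were used. Where a gene had more than 1 probe set, that with the largest mean of log2 signals across cells stood for it. The threshold was 3000, the floor 375, and differences are between medians of log2 signals, given for all 18194 genes with no filter on low values. Clopper-Pearson intervals (exact) are given for shares of cells. Precision is limited by the number of arrays, and no test, standard error or p-value was made, because each sample is 1 cell and the animals are not named.

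The genes named were those in at least 12 cells, those that stood apart in a comparison (at most 10 per direction), every Mmp and Timp, laminin chain and type IV collagen chain detected in at least 1 cell, and the 3 genes of each partner list detected in most cells, beside those called. Undetected genes, rarer ADAM, ADAMTS and collagen genes, the genes found in a single cell and the promoters were chosen for mention once their values had been seen. The members and all lists were chosen with earlier results of these data known.

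Alternatives were thresholds of 1500 and 6000, the highest probe set in each cell, quantile normalization, floors of 3 (in effect none) and 1500, genes in at least 3 cells, linear signals, leave-one-out over the cells, and the cells with under 5 rod genes. The comparison was also run on simulated cells with known shifts, in genes well above the floor and with narrower spreads than in the data. That run does not show how the rule performs for members near the floor or in the smaller groups. Calculations used Python 3.11.15, numpy 2.4.6, pandas 2.3.3 and scipy 1.17.1, and figures matplotlib 3.10.9.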

Additional observations from a re-analysis of the deposited data

How the results depend on the processing

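Of the 38 members detected in any cell, 21 were detected in the 11 cells with under 5 rod genes; under the other alternatives the number of detected members, of members in at least 12 cells and the median per cell stayed within 1.5 times. In the cells with under 5 rod genes, members lower in DS than alpha cells numbered 3, members lower in ON-OFF DS than ON DS cells 4 and members higher in OFF than ON alpha cells 4, against 0, 0 and 2; Adam23 and Mmp17 turned to 1.45 and 3.43 between OFF and ON alpha cells, and OFF S and OFF T alpha cells could not be compared, as no OFF S alpha cell remained. A threshold of 1500 gave 1 member lower in DS than alpha cells. A threshold of 6000 gave 1 higher in OFF than ON alpha and 5 lower in OFF S than OFF T alpha cells. Quantile normalization gave 1 higher in OFF than ON alpha, and 2 higher and 5 lower in OFF S than OFF T alpha cells. With no floor, 1 member was lower in ON-OFF DS than ON DS and 11 in OFF than ON alpha cells. A floor of 1500 gave 0 higher and 3 lower in OFF than ON alpha, and 0 higher and 5 lower in OFF S than OFF T alpha cells. Among the 15 members and 7113 genes found in at least 3 cells, the members called were the same in number, and made 20% of the members against 6.45% of the genes for higher in DS cells and 53.3% against 21.4% for lower in OFF S alpha cells; passing this filter depends on the cells compared, and nothing is read from these shares. Leaving out each cell in turn gave 2 to 5 members higher and 0 to 2 lower in DS than alpha cells, 3 to 7 higher and 0 to 2 lower in ON-OFF DS than ON DS cells, 0 to 2 higher and 6 to 7 lower in OFF than ON alpha cells, and 0 to 2 higher and 7 to 9 lower in OFF S than OFF T alpha cells. The Mmp17 difference between ON-OFF DS and ON DS cells then ran from -0.33 to 5.72, and that of Adam11 between OFF and ON alpha cells from -0.22 to 4.86. Of 342 called differences under an alternative, 311 moved by less than the spread within the groups, 23 by more, and 8 changed sign. That spread was wide, so a difference among the 311 could still lose its call. Mmp9 between DS and alpha cells, for example, fell from 2.44 to 0.41 without ON DS 3 and is among the 311. These counts therefore do not say how many calls held. The correlation of Adam22 and Timp2 was 0.41 on linear signals and 0.64 in the 11 cells with under 5 rod genes. The causes of these shifts were not tested. No paired analysis was possible because the cells carry no numbers shared between groups and no result comes from a test. In the screen for single cells far from their group, 12 values could be screened and 0 stood apart. Groups of 2 to 9 cells, a threshold on signal, and RNA captured from neighbouring cells limit every comparison.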
